A study of Mus musculus with 10 samples.

Results

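The 9 genes described here encode the fast and slow forms of troponin and the skeletal muscle tropomyosins. They were taken by symbol from a table of 13492 genes measured in mouse muscle, where each of the 9 symbols matched 1 entry. The fast forms are Tnnt3, Tnnc2, Tnni2 and Tpm1, the slow forms are Tnnt1, Tnnc1, Tnni1 and Tpm3, and Tpm2 is used by both fibre types. All 9 passed the minimum level for testing, a mean of 0 log2 CPM, where CPM is a gene's count scaled to a fixed library total.

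The muscle was the tibialis anterior, a fast-twitch muscle at the front of the lower hind leg. RNA was sequenced in 5 libraries labelled Lrtm1 KO and 5 labelled Lrtm1 WT, which the study's design text calls flox controls, so the control mice may carry the floxed allele. All mice had a C57BL/6 background, an age of 6 months and a 3 h fast before sampling. A Cre driver, the deleted part of Lrtm1 and the sex of the mice are not given in the labels. Each of 3 litters held both genotypes, as 2 KO and 1 WT libraries in litter 108, 1 KO and 2 WT libraries in litter 110, and 2 KO and 2 WT libraries in litter 112. The design text gives 4 per group where the labels give 5, and all 10 libraries were used, named KO 1 to KO 5 and WT 1, WT 3, WT 4, WT 5 and WT 6 after their labels.

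Troponin is a complex of 3 subunits on the actin thin filament of striated muscle. Troponin C binds calcium, troponin I holds back the contact of myosin with actin, and troponin T ties the complex to tropomyosin, a coiled coil that lies along the filament and moves when calcium binds. Fast and slow fibres use different genes for most of these proteins, so their transcripts serve as markers of fibre type, and the tibialis anterior of the mouse is made almost wholly of fast fibres.

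Lrtm1, which encodes a leucine-rich repeat membrane protein, did not fall in the libraries labelled KO. It had 6.20, 6.12, 6.10, 5.97 and 6.21 log2 CPM in KO 1 to KO 5, against 5.61, 5.66, 5.73, 5.65 and 5.78 log2 CPM in WT 1, WT 3, WT 4, WT 5 and WT 6. Every library labelled KO lay above every library labelled WT, with a log2 difference of 0.44 (SE 0.07, adjusted p = 0.0344, limma with Benjamini-Hochberg adjustment). The adjusted p was 0.0169 without KO 4 and 0.0447 without WT 4, and lay between 0.0571 and 0.639 when any other single library was left out. Gene-level values may include reads outside the deleted part, so Lrtm1 does not settle whether the labels hold, and every direction below is between libraries labelled KO and libraries labelled WT.

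Promoters of 7 of the 9 genes were in the RefSeq table used here, and Tnni2 and Tnnt3 had no entry. Promoters are shown for the 3 slow troponin genes, which varied most between libraries, for Tnnc2, the fast partner of Tnnc1, and for Tpm2, the gene whose groups stood apart. Each sequence is the 250 bases before the annotated start on GRCm38.p6, written 5′ to 3′ on the gene's own strand. RefSeq lists 2 starts for Tnni1, and the window before the upstream one is shown, which lies inside the GENCODE interval of the gene given below. The Tnnt1 window also lies inside the interval of its gene, and the Tnnc2 and Tpm2 windows lie partly inside theirs. Capitals mark matches on either strand to the E-box CANNTG, which muscle basic helix-loop-helix factors bind, and to the M-CAT motif CATTCC, which TEAD factors bind.
Tnnt1, chr7:4515976-4516225, minus strand: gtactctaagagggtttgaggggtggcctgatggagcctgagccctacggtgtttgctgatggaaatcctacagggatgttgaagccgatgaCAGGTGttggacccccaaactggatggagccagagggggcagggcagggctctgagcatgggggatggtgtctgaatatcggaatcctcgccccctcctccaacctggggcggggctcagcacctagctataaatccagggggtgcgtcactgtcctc
Tnnc1, chr14:31208062-31208311, plus strand: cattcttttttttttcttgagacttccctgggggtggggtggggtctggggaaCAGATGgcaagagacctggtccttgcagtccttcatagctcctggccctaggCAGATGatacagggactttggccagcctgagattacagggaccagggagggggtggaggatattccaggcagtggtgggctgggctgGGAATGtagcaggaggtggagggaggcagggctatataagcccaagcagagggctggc
Tnni1, chr1:135799171-135799420, plus strand: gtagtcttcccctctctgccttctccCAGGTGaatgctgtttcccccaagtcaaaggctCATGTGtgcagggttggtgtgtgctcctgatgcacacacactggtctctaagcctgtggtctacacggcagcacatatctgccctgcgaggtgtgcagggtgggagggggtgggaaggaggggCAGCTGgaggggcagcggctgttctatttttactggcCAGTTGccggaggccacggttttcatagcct
Tnnc2, chr2:164779735-164779984, minus strand: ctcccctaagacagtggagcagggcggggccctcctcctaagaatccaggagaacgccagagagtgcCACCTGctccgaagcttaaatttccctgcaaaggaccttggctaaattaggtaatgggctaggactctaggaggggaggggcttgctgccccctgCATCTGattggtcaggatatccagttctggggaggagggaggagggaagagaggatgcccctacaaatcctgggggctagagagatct
Tpm2, chr4:43523555-43523804, minus strand: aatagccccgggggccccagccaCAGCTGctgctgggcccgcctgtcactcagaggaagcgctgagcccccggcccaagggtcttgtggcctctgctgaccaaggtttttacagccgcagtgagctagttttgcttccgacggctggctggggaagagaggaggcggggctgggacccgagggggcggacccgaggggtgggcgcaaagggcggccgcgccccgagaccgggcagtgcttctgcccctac
An E-box was present in 7 of the 7 promoters, and in 66% of all 27025 promoters of this length in the table. Tnni1 held 4 E-boxes, Tnnc1 and Tnnc2 held 2 each, and Tnnt1 and Tpm2 held 1 each. The M-CAT motif lay 58 bases before the Tnnc1 start and was also present once before Tpm1, so in 2 of 7 promoters against 12.6% of all promoters. A match to the MEF2 consensus occurred in 0 of the 7 and in 3.01% of all promoters. These matches describe letters in the windows only.

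None of the 9 genes differed between the groups at an adjusted p of 0.05. Across the table, 41 of 12223 genes tested passed, or 0.335%, with 33 higher (0.27%) and 8 lower (0.0655%) in the libraries labelled KO. The 9 differences lay between -0.26 for Tnni1 and 0.35 for Tnnc1 on the log2 scale, around a median over all genes of -0.0041. At an unadjusted p of 0.05, 0 of the 9 and 10.1% of all genes passed. No member passed in any alternative fit in which it was tested (with a minimum of 2 log2 CPM, Tnnt1, Tnnc1 and Tnni1 were not), including a fit with litter and genotype only, in which 1054 genes, or 8.62%, passed. In that fit 1 of the 9, Tpm2, and 26.4% of all genes had an unadjusted p under 0.05. The depth per library is unknown, and in bulk RNA fewer cells of a type and less RNA per cell cannot be told apart.

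**Figure D1:**
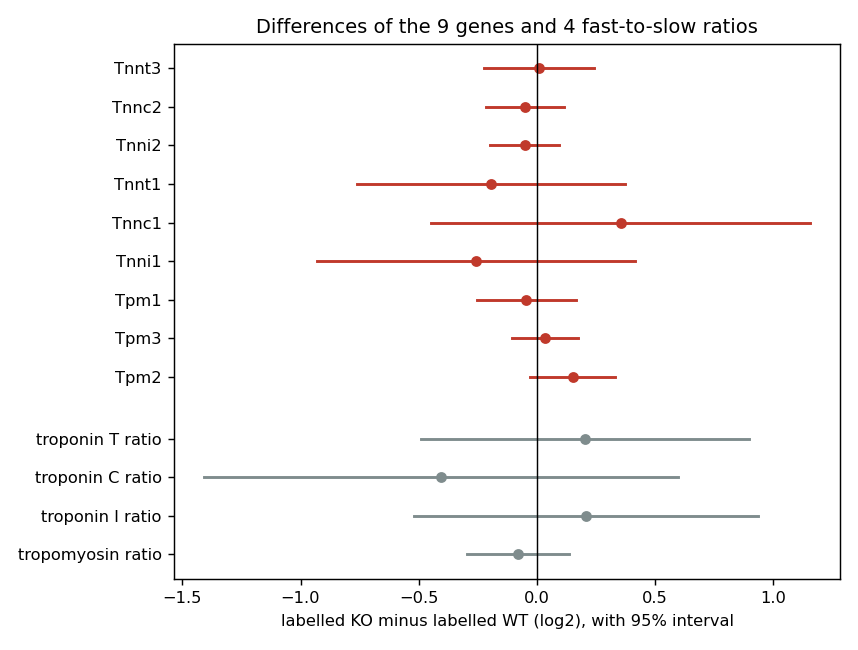
Differences of the 9 genes and of 4 fast-to-slow ratios, libraries labelled KO minus libraries labelled WT, on the log2 scale, with 95% intervals from limma. Every interval crosses 0, and the widest are those of Tnnc1 and of the troponin C ratio that contains it.

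The fast troponin T gene Tnnt3 (chr7:142498836-142516009, plus strand, GRCm38) anchors the fast complex to tropomyosin. It had 13.28, 13.34, 13.40, 13.33 and 13.16 log2 CPM in KO 1 to KO 5, against 13.28, 13.37, 13.12, 13.38 and 13.32 log2 CPM in the 5 WT libraries. KO 5 and WT 4 were the low libraries of their groups, and the ranges overlapped almost fully. It differed by 0.01 on the log2 scale (SE 0.10, 95% interval -0.22 to 0.24, adjusted p = 0.986), so the interval allows anything from 0.86-fold to 1.18-fold. Tnnt3 ranked 15 of 13492 by mean CPM.

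The calcium-binding subunit of fast fibres, Tnnc2 (chr2:164777161-164779967, minus strand), was the steadiest of the 9 genes. It had 12.03, 12.06, 12.03, 12.06 and 12.06 log2 CPM in KO 1 to KO 5, against 12.11, 12.11, 12.11, 12.05 and 12.13 log2 CPM in the 5 WT libraries. Only WT 5 lay within the KO range, and the other 4 WT libraries were above all 5 KO libraries. On the log2 scale the difference was -0.05 (SE 0.07, 95% interval -0.21 to 0.11, adjusted p = 0.873), and its sign was the same in each litter, at -0.06, -0.08 and -0.03. A shared sign in all 3 litters was seen in 4 of the 9 genes (Tnnc2, Tnni2, Tpm1 and Tpm2) and in 47.9% of all genes tested.

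The fast inhibitory subunit Tnni2 (chr7:142441808-142444410, plus strand), whose product blocks the actin site at rest, lies 54.4 kb from Tnnt3. It had 11.05, 11.06, 11.02, 11.07 and 11.09 log2 CPM in KO 1 to KO 5, against 11.13, 11.10, 11.15, 11.05 and 11.12 log2 CPM in the 5 WT libraries. As for Tnnc2, WT 5 was the only WT library inside the KO range. Its log2 difference was -0.05 (SE 0.07, 95% interval -0.20 to 0.09, adjusted p = 0.849).

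**Figure D2:**
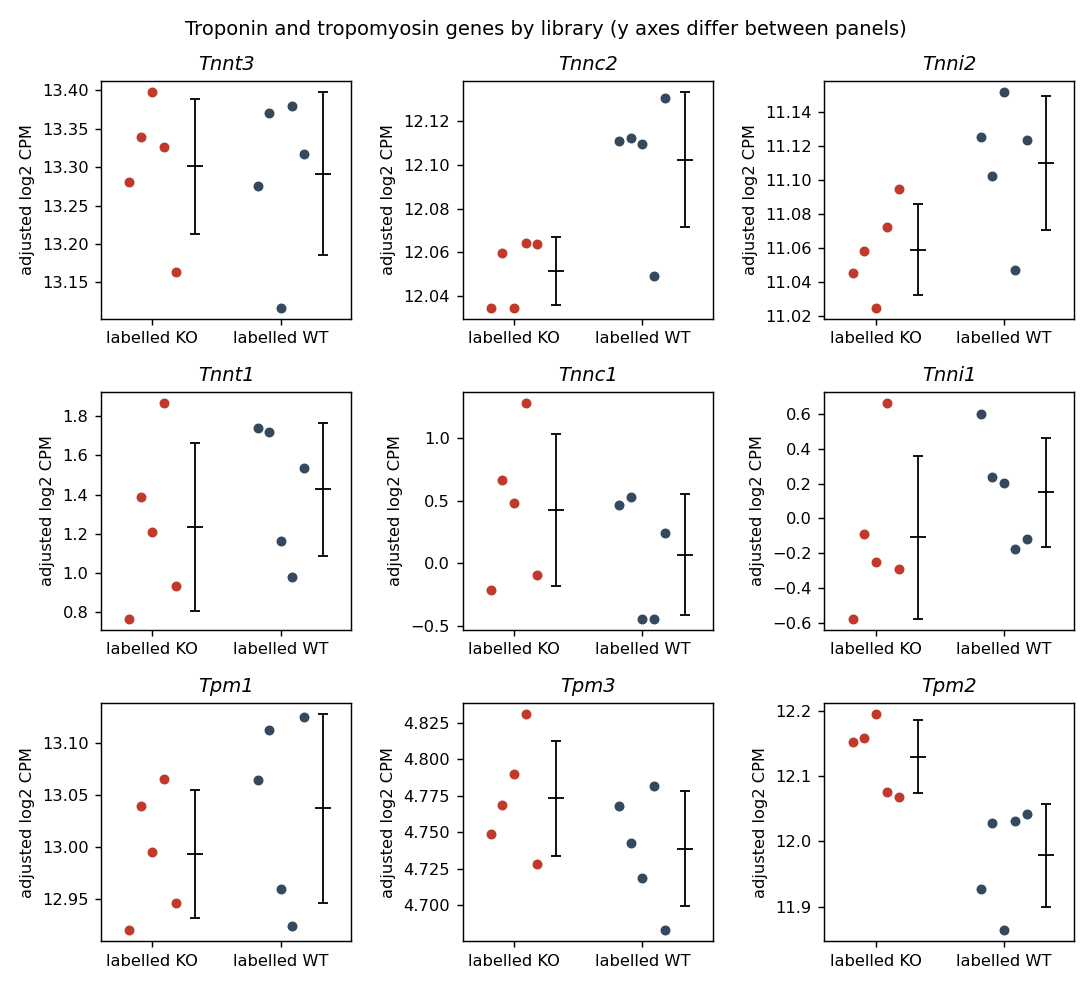
Adjusted log2 CPM of the 9 genes in each library, libraries labelled KO on the left and labelled WT on the right in replicate order, with the mean and SD (n = 5 each) beside the points. Axes differ between panels, so that Tnnc2 spans 0.10 and Tnnc1 spans 1.72 on the log2 scale over the 10 libraries, and only Tpm2 shows groups that do not overlap.

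The slow troponin genes were at the low end of the table, and their values are given as CPM converted back from the log2 values. The slow troponin T gene Tnnt1 (chr7:4504570-4516382, minus strand) had 1.70, 2.62, 2.31, 3.65 and 1.91 CPM in KO 1 to KO 5, against 3.34, 3.29, 2.24, 1.98 and 2.90 CPM in the 5 WT libraries. KO 4 was the highest library of all and KO 1 the lowest, so the KO range enclosed the WT range. Means were 2.44 ± 0.764 CPM in KO and 2.75 ± 0.617 CPM in WT (SD, n = 5 each). The log2 difference was -0.19 (SE 0.26, 95% interval -0.76 to 0.37, adjusted p = 0.853), which allows anything from 0.59-fold to 1.30-fold.

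Tnnc1 (chr14:31208312-31211729, plus strand) encodes the calcium-binding subunit of slow and cardiac muscle and lies 2.17 Mb from Lrtm1. It had 0.863, 1.59, 1.39, 2.43 and 0.937 CPM in KO 1 to KO 5, against 1.38, 1.44, 0.735, 0.735 and 1.18 CPM in the 5 WT libraries. KO 4 was again the highest, while WT 4 and WT 5 were the lowest. Means were 1.44 ± 0.630 CPM in KO and 1.10 ± 0.342 CPM in WT (SD, n = 5 each), with a log2 difference of 0.35 (SE 0.36, 95% interval -0.45 to 1.16, adjusted p = 0.803). The interval allows anything from 0.73-fold to 2.23-fold, the widest of the 9 genes. The gene overlaps Nisch on the other strand.

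Tnni1 (chr1:135779434-135810989, plus strand), the slow inhibitory subunit, had the lowest mean of the 9 genes. It had 0.670, 0.940, 0.841, 1.58 and 0.816 CPM in KO 1 to KO 5, against 1.51, 1.18, 1.15, 0.886 and 0.923 CPM in the 5 WT libraries. KO 4 and WT 1 stood highest, and KO 1, KO 3 and KO 5 lay below the lowest WT library, WT 5. The log2 difference was -0.26 (SE 0.30, 95% interval -0.93 to 0.41, adjusted p = 0.826).

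The litters did not give the slow troponins 1 direction. Tnni1 differed by -0.93 on the log2 scale in litter 108, by -0.47 in litter 110 and by 0.33 in litter 112. The same litters gave log2 differences of -0.66, -0.23 and 0.14 for Tnnt1, and of -0.24, 0.44 and 0.69 for Tnnc1. Litter 112, which holds KO 4, had the highest difference for each of the 3 genes.

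Among tropomyosins, the striated muscle alpha form of fast fibres comes from Tpm1 (chr9:67022590-67049406, minus strand). Tpm1 had 12.92, 13.04, 13.00, 13.07 and 12.95 log2 CPM in KO 1 to KO 5, against 13.06, 13.11, 12.96, 12.92 and 13.13 log2 CPM in the 5 WT libraries. The lowest values of both groups were alike, and WT 6 and WT 3 were above every KO library. Tpm1 gave a log2 difference of -0.04 (SE 0.10, 95% interval -0.25 to 0.17, adjusted p = 0.921). Gene-level values sum over 21 annotated transcripts, which include forms of non-muscle and smooth muscle cells.

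Tpm3 (chr3:90072649-90100902, plus strand), the source of slow alpha tropomyosin and of cytoskeletal forms, had 4.75, 4.77, 4.79, 4.83 and 4.73 log2 CPM in KO 1 to KO 5. In the 5 WT libraries it had 4.77, 4.74, 4.72, 4.78 and 4.68 log2 CPM. The groups overlapped over most of their range, and KO 4 was the highest library here too. The log2 difference was 0.03 (SE 0.06, 95% interval -0.11 to 0.18, adjusted p = 0.904). The annotation holds 2 copies named Tpm3-rs2 and Tpm3-rs7, and whether reads were shared with them was not measured, so the Tpm3 level is uncertain.

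Tpm2 (chr4:43514711-43523765, minus strand), the beta tropomyosin gene that pairs with either alpha form, was the 1 member whose groups did not overlap. It had 12.15, 12.16, 12.19, 12.08 and 12.07 log2 CPM in KO 1 to KO 5, against 11.93, 12.03, 11.86, 12.03 and 12.04 log2 CPM in the 5 WT libraries. Every KO library was above every WT library, although KO 5 exceeded WT 6 by little. Such separation was found in 16.2% of all genes tested, and in 8.56% with the KO libraries higher, so 1 of 9 is near the background. The difference was 0.15 on the log2 scale, or 1.11-fold (SE 0.08, 95% interval -0.03 to 0.33, adjusted p = 0.580, limma). With litter and genotype only, which counts more residual degrees of freedom than remain, the adjusted p was 0.0982. By litter the Tpm2 difference was 0.23, 0.25 and 0.04. It was 0.02 in the fit without KO 3, although the remaining KO libraries still lay above every WT library. That fit also refits the terms removed before deposit on the libraries left, so 0.02 does not show the part of KO 3 alone.

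Per length, the fast genes exceeded their slow partners by at least 232-fold in every library. Fast-to-slow ratios were set per length of the longest annotated transcript, since CPM alone does not compare genes of unequal length. Tnnt3 exceeded Tnnt1 by 2763-fold to 5740-fold in KO and by 2913-fold to 5291-fold in WT libraries. Tnnc2 exceeded Tnnc1 by 1817-fold to 5006-fold in KO and by 3161-fold to 6191-fold in WT libraries. Tnni2 exceeded Tnni1 by 3274-fold to 7586-fold in KO and by 3551-fold to 5817-fold in WT libraries. The gap was far smaller for tropomyosin, where Tpm1 exceeded Tpm3 by 237-fold to 254-fold in KO and by 232-fold to 286-fold in WT libraries. With the median length of the protein-coding transcripts instead, the median Tnni2 to Tnni1 ratio was 2778 in KO and 2217 in WT, against 5960 and 4756 with the longest, so the level of a ratio depends on the length used while its difference between groups does not.

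As a share of fast plus slow transcripts per length, the slow form made up 0.0245 ± 0.00717% of troponin T in KO and 0.0279 ± 0.00596% in WT libraries. For troponin C the slow share was 0.0329 ± 0.0142% in KO and 0.0241 ± 0.0073% in WT, and for troponin I it was 0.0189 ± 0.00679% in KO and 0.0212 ± 0.00447% in WT. The slow tropomyosin share was 0.407 ± 0.0103% in KO and 0.386 ± 0.031% in WT (SD, n = 5 each throughout). Transcripts of each troponin subunit were thus almost wholly of the fast form in each library, and protein was not measured. The tropomyosin share counts all transcripts of Tpm1 and Tpm3, non-muscle and cytoskeletal forms included, so it is not a share of slow fibre tropomyosin alone. It leaves out Tpm2, which both fibre types use and which had 1715 to 2155 CPM per kb beside 2681 to 3091 CPM per kb for Tpm1.

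In CPM per kilobase the 9 genes fell into a high and a low tier. Over the 10 libraries Tnnt3 was highest, at 8234 to 10001 CPM per kb, and did not overlap with Tnnc2 at 5994 to 6405 CPM per kb. Tpm1 followed at 2681 to 3091, Tnni2 at 2328 to 2542 and Tpm2 at 1715 to 2155 CPM per kb, again without overlap between neighbours. In the low tier Tpm3 had 10.8 to 12.0 CPM per kb, while Tnnt1 at 1.61 to 3.45 and Tnnc1 at 1.02 to 3.37 CPM per kb overlapped, and Tnni1 was lowest at 0.311 to 0.735. The order of means was the same with the median protein-coding length, where Tnni1 at 0.895 to 2.11 CPM per kb also overlapped with Tnnc1. Together the 9 genes took 2.83% to 2.99% of all CPM in KO and 2.84% to 3.01% in WT libraries.

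**Figure D3:**
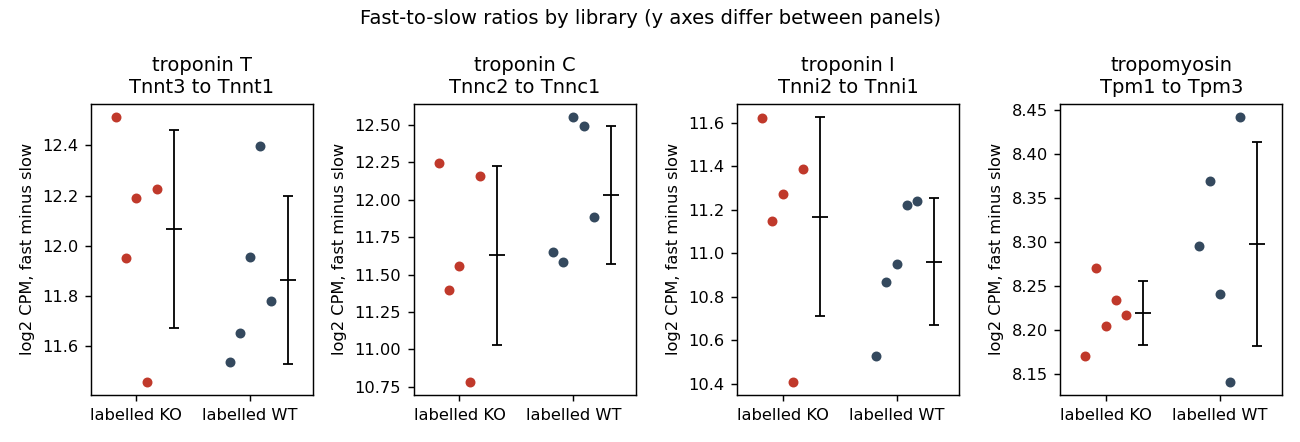
The 4 fast-to-slow ratios in each library, as log2 CPM of the fast gene minus log2 CPM of the slow gene, libraries labelled KO on the left and labelled WT on the right, with the mean and SD (n = 5 each). The groups overlap in each panel, and the lowest troponin T, C and I ratios are all from KO 4.

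The fast-to-slow ratios did not separate the groups. On the log2 CPM scale the troponin T ratio was 12.51, 11.95, 12.19, 11.46 and 12.23 in KO 1 to KO 5, against 11.54, 11.65, 11.95, 12.40 and 11.78 in the 5 WT libraries. KO 1 and WT 5 had the highest ratios, KO 4 the lowest, and the difference was 0.20 (SE 0.28, 95% interval -0.49 to 0.90, adjusted p = 0.863). The troponin C ratio was 12.25, 11.39, 11.56, 10.78 and 12.16 in KO 1 to KO 5, against 11.65, 11.58, 12.55, 12.49 and 11.89 in the 5 WT libraries. WT 4 and WT 5 were above all KO libraries and KO 4 was below all others, and the difference was -0.41 (SE 0.41, 95% interval -1.41 to 0.60, adjusted p = 0.809).

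The troponin I ratio was 11.62, 11.15, 11.27, 10.41 and 11.39 in KO 1 to KO 5, against 10.53, 10.87, 10.95, 11.22 and 11.24 in the 5 WT libraries. Apart from KO 4, 3 KO libraries lay above every WT library and KO 2 lay within the WT range. The difference was 0.21 (SE 0.30, 95% interval -0.52 to 0.93, adjusted p = 0.870). The tropomyosin ratio was 8.17, 8.27, 8.21, 8.23 and 8.22 in KO 1 to KO 5, against 8.30, 8.37, 8.24, 8.14 and 8.44 in the 5 WT libraries. Its KO values were the closer set and lay inside the WT range, with a difference of -0.08 (SE 0.09, 95% interval -0.29 to 0.14, adjusted p = 0.832).

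The troponin C ratio thus pointed to more slow transcript in KO libraries and the troponin T and I ratios to less, and none of the 3 intervals excluded 0. In fits that left out single libraries the troponin C difference lay between -1.05 without WT 1 and 0.18 without KO 2. The troponin T difference lay between -0.35 without WT 1 and 0.50 without KO 2, and the troponin I difference between -0.52 without WT 1 and 0.54 without KO 4. These fits also refit the terms removed before deposit, so the ranges are not the influence of single libraries alone. By litter the differences were 0.17, -0.51 and -0.72 for troponin C, 0.70, 0.39 and -0.25 for T, and 0.86, 0.37 and -0.33 for I. An exact permutation test, two-sided, with the labels assigned within litters in all 54 ways (smallest possible p 0.0185), gave p = 0.481 for troponin T, 0.352 for C, 0.5 for I and 0.333 for tropomyosin. Because the deposited values were adjusted with genotype kept, these assignments are not exchangeable.

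The slow troponin genes were among the genes that varied most within groups. Their within-group SDs were 0.39 for Tnnt1, 0.55 for Tnnc1 and 0.40 for Tnni1 on the log2 CPM scale, larger than those of 99.1%, 99.7% and 99.2% of all genes tested. Low genes vary more on a log scale, yet among genes whose mean lay within 0.5 log2 units of their own the SDs still exceeded those of 98.4% of 1470 genes for Tnnt1, 98.7% of 994 for Tnnc1 and 95.8% of 672 for Tnni1. Only genes with a mean of at least 0 log2 CPM were compared, which cuts off the lower side of the Tnnc1 and Tnni1 windows. Their percentages are thus set mostly against higher genes and may be too large. Tnnc2 at 0.02, Tnni2 at 0.03 and Tpm3 at 0.04 were at the other end, with larger SDs than only 4.21%, 9.85% and 14.5% of all genes. Tnnt3, Tpm1 and Tpm2, at 0.10, 0.08 and 0.07, lay between.

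**Figure D4:**
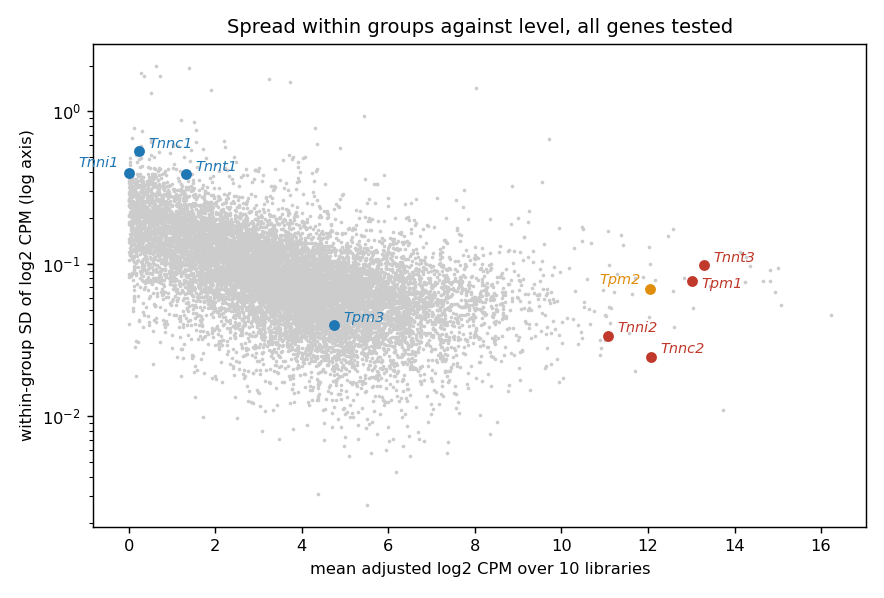
Within-group SD (log axis) against mean adjusted log2 CPM for all genes tested (grey), with the fast genes in red, the slow genes in blue and Tpm2 in orange. Tnnt1, Tnnc1 and Tnni1 lie at the upper edge of the cloud, and Tpm3, the fourth slow gene, lies in its lower part.

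Across the 10 libraries the slow troponin genes moved together. Pearson r was 0.86 between Tnnt1 and Tnni1 (Spearman rho 0.89), 0.80 between Tnnt1 and Tnnc1 (rho 0.75) and 0.58 between Tnnc1 and Tnni1 (rho 0.54). Without KO 4 and KO 1, the libraries farthest from the Tnnt1 median, the first of these was 0.72 and the second 0.71, and the third was 0.30 without KO 4 and WT 5. Among the fast genes Tnnc2 and Tnni2 had an r of 0.91, and 0.84 after the group means were removed, while Tnni2 and Tpm2 had -0.87 and -0.76. Tnnt1 also followed the fast gene Tpm1, with an r of 0.89. These are 5 pairs of large r taken with 1 smaller one from 36 pairs computed, over libraries that share 3 litters and an adjustment after which few independent directions remain, so high values are common and no p is given.

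Slow myosin heavy chain Myh7, the motor of slow fibres, had a wider range still. Myh7 ran from 0.64 log2 CPM in KO 1 to 3.08 in KO 4, against -0.66 in WT 5 to 1.46 log2 CPM in WT 1. KO 4 was the highest library, as for all 4 slow genes, and WT 5 was the lowest, as for Tnnc1. The Myh7 difference was 0.98 (SE 0.52, adjusted p = 0.572, limma). The mean standardised profile of Tnnt1, Tnnc1 and Tnni1 had an r with Myh7 of 0.75, which was 0.58 without KO 4 and KO 1, and of 0.29 with the slow regulatory light chain Myl2 and -0.17 with the slow essential light chain Myl3. Myh7 had the highest r of 16 slow fibre genes set against the profile, of which 9 were above 0 and 7 below, down to -0.50 for the myoglobin gene Mb.

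**Figure D5:**
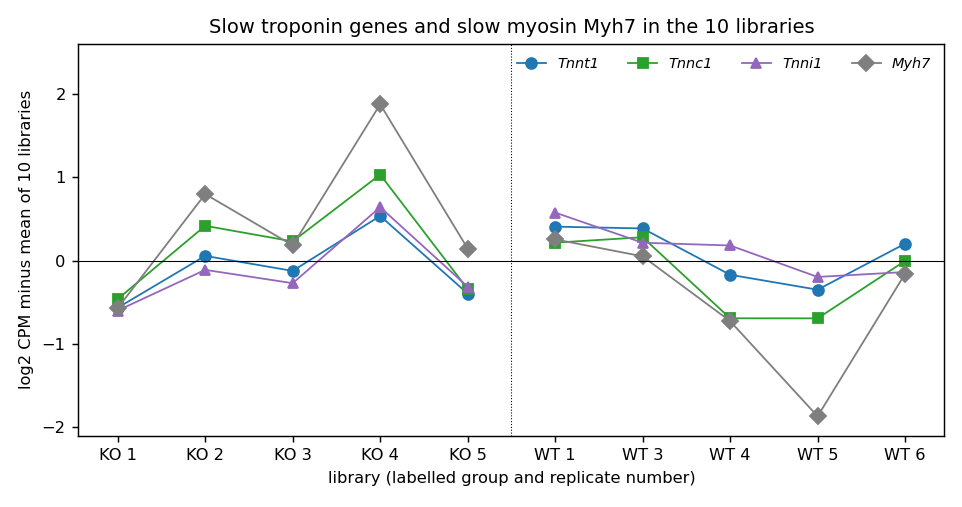
Log2 CPM of Tnnt1, Tnnc1, Tnni1 and Myh7 in each library minus the gene's mean over the 10 libraries, libraries labelled KO on the left and labelled WT on the right. Lines join the points of a gene and imply no order of libraries, and all 4 genes peak in KO 4.

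By the fixed rule of highest r over the 10 libraries among 10876 genes, the genes most like the slow troponin profile were Shfl, Lamtor4, Mbp, Rai2, Ints12, Apobec2, Fastkd2 and Plekha4, with r between 0.985 and 0.997. Of these, Mbp encodes a myelin protein. For the profile of Tnnt3, Tnnc2 and Tnni2 they were Antxr1, Gja4, Armc10, Armcx3, Pcid2, Elob, Nptn and Tigd2, with r between 0.991 and 0.9997. An r of at least 0.9 was reached by 135 genes, or 1.24%, for the slow profile and by 260, or 2.39%, for the fast profile, and no shared function is read from these lists.

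Markers of myelin and Schwann cells are given beside the slow troponins. Pmp22, a membrane protein of peripheral myelin, had 4.45, 4.80, 4.74, 5.18 and 4.51 log2 CPM in KO 1 to KO 5, against 5.17, 5.08, 4.80, 4.80 and 4.87 log2 CPM in the 5 WT libraries. As for Tnnt1 and Tnni1, KO 4 was highest and KO 1 lowest. The summed level of the 4 markers used ran from 39.1 to 76.9 CPM in KO and from 48.9 to 69.8 CPM in WT libraries, and 0 of the 4 passed the threshold. Their part in the spread of the slow troponin genes was not tested.

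Of the other troponin and tropomyosin genes, Tnni3 (cardiac troponin I) and Tnni3k (a kinase that binds it) had no entry under these symbols among the genes deposited. Tnnt2, the cardiac troponin T gene, which is also used by immature skeletal muscle, averaged -0.03 ± 0.07 log2 CPM in KO and 0.24 ± 0.10 log2 CPM in WT libraries (SD, n = 5 each). Its groups did not overlap, as in 7.63% of all genes with the KO libraries lower, and its difference of -0.27 did not pass (adjusted p = 0.717, limma). Tpm4, the cytoskeletal tropomyosin, averaged 5.48 ± 0.10 log2 CPM in KO and 5.34 ± 0.08 log2 CPM in WT, with a difference of 0.14 (adjusted p = 0.572).

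Partners of the 9 proteins on the thin filament did not pass either, at 0 of 20 in each direction with a median difference of 0.04. The closest were Xirp1, an actin-binding protein of stressed sarcomeres, which averaged 6.59 ± 0.04 log2 CPM in KO and 6.35 ± 0.06 log2 CPM in WT (difference 0.23, adjusted p = 0.184, or 0.00846 with litter and genotype only and 0.0215 without litter), and Actc1, cardiac actin, at 5.95 ± 0.37 in KO and 5.40 ± 0.29 log2 CPM in WT (difference 0.55, adjusted p = 0.355). Actc1 passed without KO 1 (difference 0.85, adjusted p = 0.000815) and had a difference of 0.235 without KO 2 and 0.31 without KO 4. These fits also refit the terms removed before deposit, so they do not show the part of single libraries alone. Actc1 was highest in KO 4 and lowest in WT 5. Skeletal actin Acta1 averaged 14.32 ± 0.03 log2 CPM in KO and 14.16 ± 0.10 log2 CPM in WT, with a difference of 0.15 (adjusted p = 0.710), close in size to that of Tpm2.

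The other fibre type genes gave no call either. Of 15 fast fibre genes 0 passed in either direction, with a median difference of 0.03, and Myh4, the myosin of the fastest fibres, averaged 15.07 ± 0.05 log2 CPM in KO and 14.94 ± 0.12 log2 CPM in WT (difference 0.13, adjusted p = 0.808). Of 15 slow fibre genes tested 0 passed, with a median of -0.12, and Sln was below the minimum level. Differences were below 0 for 11 and above 0 for 4, where 51.4% of all genes were below 0. With litter and genotype only 1 passed higher and 1 lower, where 8.62% of all genes passed. The closest were Casq2, the slow calsequestrin, at 4.85 ± 0.14 log2 CPM in KO and 5.23 ± 0.14 in WT (difference -0.39, adjusted p = 0.184, or 0.0285 with litter and genotype only and 0.0485 without litter), and Csrp3, a Z-disc LIM protein, at 3.21 ± 0.41 log2 CPM in KO and 4.33 ± 0.56 in WT (difference -1.12, adjusted p = 0.204). Csrp3 passed without KO 3 (difference -2.16, adjusted p = 7.32e-05) or WT 4 (-1.39, 0.00508), in fits that also refit the removed terms. By litter its difference was -0.79, -0.33 and -1.85. Atp2a2, the slow calcium pump, went the other way (difference 0.21, adjusted p = 0.332, or 0.0365 with litter and genotype only). Groups did not overlap for 2 of the 15 slow fibre genes, where 16.2% of all genes did not. These were Atp2a2, with the KO libraries higher (8.56% of all genes), and Casq2, with the KO libraries lower (7.63%). The closest fast gene was Myom2, an M-band protein, at 10.47 ± 0.03 log2 CPM in KO and 10.32 ± 0.05 in WT (difference 0.15, adjusted p = 0.443, or 0.0280 with litter and genotype only). Myom2 was the 1 of the 15 fast fibre genes whose groups did not overlap, with the KO libraries higher.

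In the thick filament and Z-disc list 0 of 21 rose and 1 fell, Mybph, a myosin-binding protein of fast muscle, with a median difference of -0.02. Over all genes 0.27% rose and 0.0655% fell. With litter and genotype only 2 of the 21 were higher and 2 lower, in a fit where 8.62% of all genes passed. Mybph averaged 2.70 ± 0.32 log2 CPM in KO and 4.30 ± 0.38 log2 CPM in WT (difference -1.60, adjusted p = 0.0162). The call was lost without KO 3 (adjusted p = 0.0775), KO 5 (0.0518), WT 1 (0.354) or WT 6 (0.155). Of 21 calcium-sensitive regulators of fibre type 1 rose and 0 fell, against 0.27% and 0.0655% of all genes, with a median of 0.08. Differences were above 0 for 18 of the 21 and below 0 for 3, where 51.4% of all genes were below 0. Groups did not overlap for 5 (16.2% of all genes), and 5 passed with litter and genotype only (8.62% of all genes), all 5 higher. The 1 that rose was Eya1, a transcriptional cofactor known for driving fast fibre genes, at 4.96 ± 0.02 log2 CPM in KO and 4.63 ± 0.02 log2 CPM in WT (difference 0.34, adjusted p = 0.0495). Its adjusted p lay between 0.0707 and 0.423 when any 1 library was left out.

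Summed CPM of 8 muscle fibre markers was 49925 to 52146 in KO and 46208 to 51747 in WT libraries, so transcripts of the labelled tissue were abundant in both. Smooth muscle markers, of which 8 of 9 were measured and which bear on Tpm1 and Tpm2, summed to 2115 to 2263 CPM in KO and 2193 to 2280 CPM in WT. Des, which skeletal fibres also express and which is on the muscle fibre list too, made up 93.2% to 93.4% of that level in KO and 93.0% to 93.6% in WT, and the 6 other tested markers summed to 139 to 154 CPM in KO and 142 to 159 CPM in WT. Among them Acta2 had a difference of 0.14 (adjusted p = 0.579) and Smtn one of -0.14 (adjusted p = 0.469, or 0.0345 with litter and genotype only). Cardiac and immature muscle markers, 6 of 11 measured, summed to 57.5 to 102 CPM in KO and 41.5 to 63.1 CPM in WT. Actc1 made up 81.4% to 89.2% of that level in KO and 74.5% to 81.2% in WT, and the 5 other genes summed to 10.7 to 11.9 CPM in KO and 9.41 to 15.3 CPM in WT. Of the lists of other cells, the adipocyte markers alone had sums that did not overlap, at 9.10 to 14.1 CPM in KO and 17.0 to 30.0 CPM in WT. The adipocyte genes Lep (difference -2.21, adjusted p = 0.0642) and Cidec (-1.20, adjusted p = 0.121) did not pass. Lep passed with centred libraries (adjusted p = 0.0452), without litter (0.0283), with litter and genotype only (0.0148), and without KO 1 (difference -2.62, adjusted p = 0.0107), KO 5 (-2.84, 0.0167), WT 3 (-2.84, 0.00165) or WT 4 (-1.87, 0.0377). The fits without single libraries also refit the removed terms, so these values are not the influence of those libraries alone. Lep lay near the minimum level, with a mean of 0.51 log2 CPM. Cidec passed without litter (0.0302), with litter and genotype only (0.0152) and with the replicate block (0.0480). All 5 adipocyte genes tested had differences below 0 (51.4% of all genes), and 4 of the 5 passed with litter and genotype only (8.62% of all genes). The part of these cells in the values of the 9 genes was not tested.

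Sums of the fibroblast and tendon markers were 564 to 647 CPM in KO and 583 to 733 CPM in WT, and those of the endothelial markers 215 to 221 CPM in KO and 208 to 223 CPM in WT. Macrophage markers summed to 30.4 to 32.9 CPM in KO and 31.4 to 35.5 CPM in WT, and satellite cell markers to 25.3 to 27.8 CPM in KO and 26.0 to 29.8 CPM in WT. None of these genes passed the threshold, and Fmod passed when WT 5 was left out (adjusted p = 0.0104). Nothing in the labels says that the libraries come from separate animals, and p-values then cover only the spread between them.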

How the data were processed

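Libraries were stranded and oligo-dT primed (BGI/MGI kit), per the labels' protocols. The submitters' processing notes name fastp, kallisto and limma. Not given in the sources used here are their versions, the genome build, the annotation and any use of strand in counting. Tnnt3, Tnnc2 and Tnnc1, which overlap a gene on the other strand, may therefore hold some of its reads. The authors deposited adjusted log2 CPM values for 13492 genes, with no positions and no counts, so depth is unknown and counting intervals cannot be given. Converted back, the deposited log2 values sum to between 960166 and 1016398 CPM per library, and the library medians lie between 3.35 and 3.36 log2 CPM.

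With genotype in the fit, the largest litter coefficient of any gene was 6.65e-14, and the residuals of all genes spanned 3 dimensions where litter and genotype leave 6. Litter and 3 further unnamed terms had therefore been removed with genotype kept. SDs therefore lack the removed variation, and SEs are lower bounds. The test was limma 3.58.1 under R 4.3.3 (lmFit, then eBayes with its trend option), two-sided, on the 12223 genes whose mean log2 CPM reached 0, leaving out 1269. The terms were litter, genotype and the 3 removed directions, which leaves 3 residual degrees of freedom, and a Benjamini-Hochberg adjusted p under 0.05 over all genes counted as passing. The 4 fast-to-slow ratios were added to the table and fitted without a trend. The fit was tested on simulated data. Differences are KO minus WT. Pearson r is given as a description.

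Positions, transcript lengths and overlaps are those of GENCODE M21 (GRCm38), found by Ensembl identifier, and promoters came from RefSeq on GRCm38.p6. The authors' build may differ. The genes and lists were chosen with earlier results of these data known. Named are the 9 genes, Lrtm1, up to 4 genes of each of 15 lists that passed the threshold or otherwise the 2 with the smallest p, and the 8 genes most like each profile among those averaging 1 log2 CPM or more. Myh7, Myh4 and Acta1 were added as references after their values were seen, and Atp2a2 as a slow fibre gene that went the other way. A marker gene of the fixed lists is not reported here. Alternatives changed the terms, the minimum, a pseudocount, the eBayes settings, the centring and the libraries used. Every fit without 1 library also refits the removed directions, so it does not show the influence of that library alone.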

Additional observations from a re-analysis of the deposited data

Results flagged for a closer look

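In groups of 5 libraries, a value was marked where its gap to the nearest other value was large against the range of its group (Dixon's test at the 95% level). Of 80 groups checked, 5 were marked, and chance marks about 1 in 20. Each of the 5 was WT 5. Tnnc2 had 12.05 log2 CPM in WT 5, against 12.11 to 12.13 log2 CPM in the other WT libraries, and was the only one of the 9 troponin and tropomyosin genes marked. Mb, the myoglobin gene, had 11.79 log2 CPM in WT 5 and 11.37 to 11.48 in the others. Myom2 had 10.41 log2 CPM in WT 5 and 10.28 to 10.31 in the others. The tendon and fibroblast genes Fmod and Dcn had 6.16 and 7.76 log2 CPM in WT 5, against 6.74 to 6.93 for Fmod and 7.99 to 8.05 for Dcn in the others. Without WT 5 the Tnnc2 difference stayed below 0 and did not pass the threshold.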

How the results depend on the processing

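The count of troponin and tropomyosin genes past the threshold was 0 as reported and in each alternative, of which the minimum of 2 log2 CPM left out Tnnt1, Tnnc1 and Tnni1. Tnnc2, Tpm3, Tpm2 and the tropomyosin ratio kept their direction in each of 20 alternatives. On all 10 libraries, a change of the terms, the minimum or the eBayes settings alone cannot move a difference. Centring cancels in a ratio, and the permutation test reuses its reported difference. Agreement in these alternatives was therefore fixed in advance and says nothing about direction. The troponin I ratio difference turned to -0.0101 with log2(CPM + 5). Fits without 1 library also refit the removed directions, so the ranges below are not the influence of single libraries alone. Leaving out 1 library at a time gave these ranges of the log2 difference, which cross 0: Tnnt3 -0.183 to 0.113, Tnnt1 -0.581 to 0.33, Tnnc1 -0.251 to 1.02, Tnni2 -0.0778 to 0.0176, Tnni1 -0.595 to 0.495 and Tpm1 -0.159 to 0.0272. The ratio differences ranged from -0.348 to 0.496 for troponin T, from -1.05 to 0.179 for troponin C and from -0.52 to 0.538 for troponin I. Among list genes the ranges that cross 0 were Pmp22 -0.402 to 0.176, Prx -0.475 to 0.561, Myh1 -0.118 to 0.301, Fmod -0.549 to 0.0751, Dcn -0.225 to 0.00047, Pecam1 -0.0497 to 0.102, Adgre1 -0.41 to 0.109 and Chodl -0.329 to 0.0516.

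The count over all genes was 41, against 1054 with litter and genotype only, 517 without litter and 1 with eBayes without a trend. It ranged from 1 without WT 6 to 54 without WT 4, with 5 without WT 1, 11 without KO 2, 17 without KO 5, 21 without KO 3 and 24 without WT 3. Eya1 lost its call without a minimum (adjusted p = 0.0537), with centred libraries (0.0517) and without a trend (0.304), and Mybph without a trend (0.277) and with robust eBayes (0.334). Lrtm1 lost its call without a trend (0.315). The cause was not tested.

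Replicate numbers do not pair the samples, since number 4 names libraries of litters 112 and 110, and the deviations of same-numbered libraries had r of -0.85, 0.45, 0.03 and -0.5. With the replicate number as a block on the 8 libraries that share one, 127 genes and 0 of the 9 passed. The ratios with a trend and the coding length from the protein were not run. The unknown depth limits most the slow troponin genes, which lie between 0.670 and 3.65 CPM.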
